A study of Arabidopsis thaliana with 6 samples.

Results

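Described here are 6 nuclear genes of the Arabidopsis thaliana chloroplast, of 13355 genes measured: PRK (AT1G32060), RCA (AT2G39730), SBPASE (AT3G55800), PORB (AT4G27440), AT3G48420 and AT2G04039. They were listed by name, with earlier results of these data known, and serve carbon fixation, chlorophyll synthesis and photosynthetic electron flow. Each was measured by 1 probe set (a group of short probes that report on the same transcript). RNA of seedlings was hybridised to 6 Affymetrix expression arrays, 2 of wild type (WT) and 2 each of the mutants bin4-1 and bin4-2. BIN4 is a part of the plant topoisomerase VI complex, which untangles DNA during repeated genome replication without division. The labels give genotype and tissue only, so age, light, growth medium and the nature of each allele are not stated here, nor is it stated whether arrays of the same genotype had separate cultures behind them. The p-values thus reflect array-to-array spread alone, and that spread could be technical.

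In the Calvin-Benson cycle of the chloroplast, carbon dioxide is fixed by Rubisco and the acceptor sugar is then rebuilt. The phosphoribulokinase PRK makes the acceptor in the last step, the sedoheptulose bisphosphatase SBPASE commits carbon to its regeneration, and the Rubisco activase RCA frees Rubisco of bound inhibitory sugar phosphates. PORB reduces protochlorophyllide in the light-dependent step of chlorophyll synthesis. AT3G48420 is a sugar-phosphate phosphatase gene and AT2G04039 encodes a subunit of the chloroplast NDH complex, which passes electrons around photosystem I. All 6 are encoded in the nucleus, and their proteins work in the chloroplast together with products of plastid genes.

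Values are log2 of the deposited intensity, so a difference of 1 is a doubling, and a gene was called changed at an adjusted p under 0.05 over all 13355 genes. The median log2 intensity of an array was between 4.70 and 4.75. Pearson's r over all probe sets was 0.995 to 0.997 within a genotype and 0.906 to 0.917 from WT to a mutant. From bin4-1 to bin4-2 it was 0.995 to 0.996, so arrays of different alleles were about as alike as arrays of 1 genotype. The targeted gene BIN4 (AT5G24630) was dim on all arrays, at 3.78 and 3.93 in WT, 3.30 and 3.35 in bin4-1, and 2.92 and 3.05 in bin4-2. It fell in both (log2 change -0.53 ± 0.11 in bin4-1 and -0.87 ± 0.11 in bin4-2, SE, limma adjusted p = 0.0015 and 3.18e-05). Where its probe set lies relative to each mutation is not given in the sources used here, so this is a weak check of the labels. Of the tissue markers listed, 2 of 10 root markers and 3 of 5 guard cell lineage markers were measured. Mesophyll, vascular, trichome, seed and senescence markers are unnamed on the array here, so the seedling label could be checked against root and guard cell genes alone.

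Transcripts of all 6 genes were lower in both mutants. In bin4-1 they stood at 6.7% to 42.4% of the WT level and in bin4-2 at 11.4% to 39.3%. All 4 mutant arrays lay below both WT arrays for each of the 6, as they did for 35.8% of all genes. The 6 were called lower in bin4-1, where 25.0% of all genes were, and in bin4-2, where 26.6% were. The median over the 6 was -2.30 (bin4-1) and -1.94 (bin4-2) on the log2 scale, where the median over all genes was -0.075 and -0.093. Since the 6 were listed with earlier results of these data known, these counts and medians are a description. The WT arrays are shared by these comparisons. In whole seedlings, fewer green cells and less RNA per cell cannot be told apart.

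**Figure D1:**
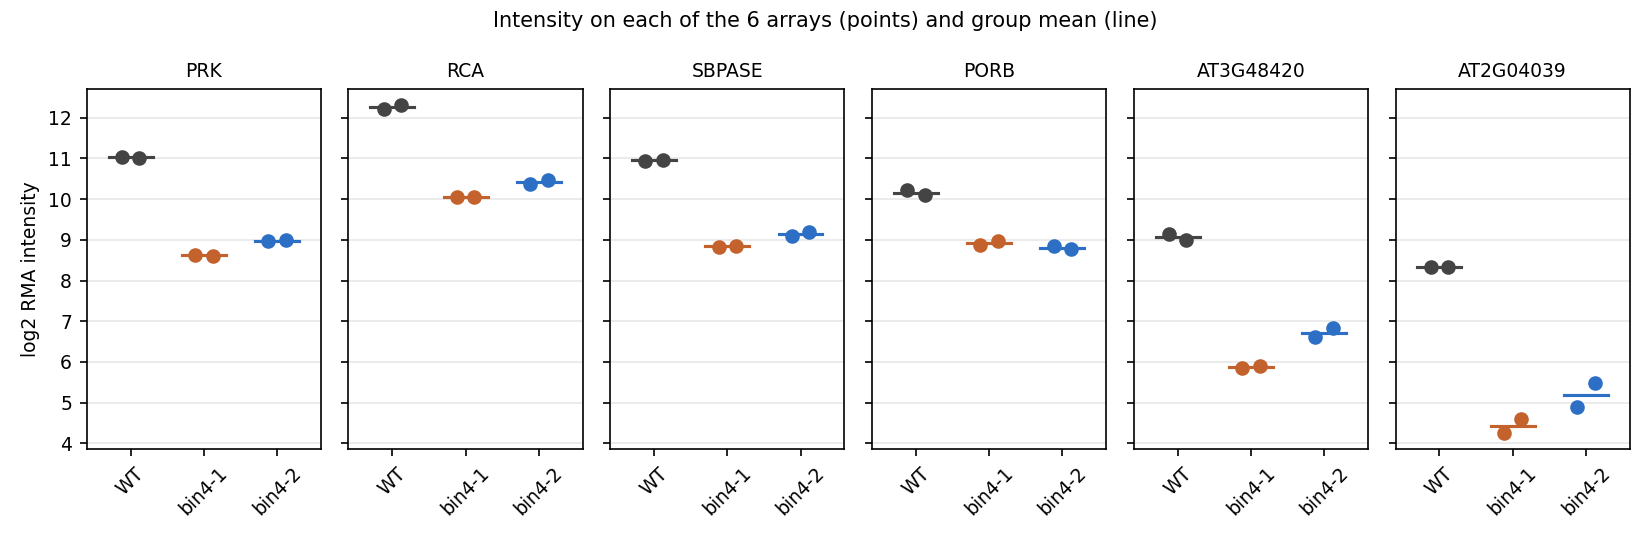
The log2 RMA intensity (y axis) of each of the 6 genes on each array is plotted by genotype, with a point for each of 2 arrays and a line at the group mean. WT lies above both mutants in each panel, by the narrowest margin for PORB, and bin4-2 lies above bin4-1 in 5 panels but not for PORB.

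PRK, RCA and SBPASE, which serve the Calvin-Benson cycle, fell between 3.51-fold and 5.31-fold. PRK read 11.03 and 11.02 in WT, 8.62 and 8.61 in bin4-1, and 8.97 and 8.99 in bin4-2. The 3 groups did not overlap, and the arrays of each group nearly coincided. PRK fell 5.31-fold in bin4-1 and 4.13-fold in bin4-2 (log2 change -2.41 ± 0.10 and -2.05 ± 0.10, SE, limma adjusted p = 3.68e-09 and 1.5e-08). In bin4-1, 0.569% of all genes had a more negative change than PRK, and in bin4-2 0.764% had.

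RCA was the brightest of the 6 probe sets in WT, which says nothing of its level relative to other transcripts. It read 12.21 and 12.30 in WT, 10.06 and 10.05 in bin4-1, and 10.38 and 10.46 in bin4-2. Again the groups did not overlap, with bin4-2 between bin4-1 and WT. RCA fell 4.58-fold in bin4-1 and 3.56-fold in bin4-2 (log2 change -2.2 ± 0.10 and -1.83 ± 0.10, SE, limma adjusted p = 9.14e-09 and 4.39e-08).

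SBPASE followed RCA closely. Its values were 10.94 and 10.96 in WT, 8.83 and 8.85 in bin4-1, and 9.10 and 9.18 in bin4-2. SBPASE fell 4.34-fold and 3.51-fold (log2 change -2.12 ± 0.10 and -1.81 ± 0.10, SE, limma adjusted p = 1.12e-08 and 4.37e-08). Taken relative to the WT mean, the profiles of RCA and SBPASE over the 6 arrays differed by a root mean square of 0.052 on the log2 scale, and 1 gene of all others lay closer to RCA. PRK differed from RCA by 0.177 and from SBPASE by 0.217 in the same measure.

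The sugar-phosphate phosphatase gene AT3G48420 was lower still. It read 9.15 and 8.99 in WT, 5.84 and 5.89 in bin4-1, and 6.61 and 6.83 in bin4-2, so that the 3 groups were again apart. The change was -3.20 ± 0.11 in bin4-1 (SE, 9.21-fold lower) and -2.35 ± 0.11 in bin4-2 (5.08-fold lower). By size of decrease it ranked 13 of 13355 genes in bin4-1 and 48 in bin4-2. AT3G48420 and AT2G04039 were included with the size of their changes already known, so their values against WT are a description and no p is given. PRK, RCA, SBPASE and PORB were also listed with earlier results of these data known, so their p-values are no independent evidence.

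PORB had the smallest fall of the 6 in each mutant. It read 10.21 and 10.10 in WT, 8.88 and 8.96 in bin4-1, and 8.85 and 8.77 in bin4-2. PORB was the one of the 6 whose bin4-2 arrays were the lowest. The fall was 2.36-fold in bin4-1 and 2.55-fold in bin4-2 (log2 -1.24 ± 0.10 and -1.35 ± 0.10, SE, limma adjusted p = 1.21e-06 and 6.23e-07). Against RCA, the root mean square difference of its profile was 0.624, and against PRK 0.789.

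The NDH subunit gene AT2G04039 had the largest decrease of the 6. It read 8.32 and 8.33 in WT, 4.26 and 4.59 in bin4-1, and 4.89 and 5.48 in bin4-2. The mutant groups did not overlap, but the 2 bin4-2 arrays were 0.59 apart, the widest gap between arrays of 1 group among the 6 genes. The change was -3.90 ± 0.17 in bin4-1 (14.9-fold lower) and -3.14 ± 0.17 in bin4-2 (8.81-fold lower, SE). It ranked 4 and 5 of all genes by size of decrease. Both bin4-1 values lay under the median of their arrays, and no background level was set, so the fold in bin4-1 may be a lower bound.

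Related nuclear genes were taken from lists of locus identifiers, leaving out the 6 genes themselves. Of 187 listed genes, 37 were named by a probe set. Of these, 35 fell in bin4-1 and 35 in bin4-2 (94.6% each), where 25.0% and 26.6% of all genes did. In each mutant 1 rose, where 22.0% and 21.1% of all genes did. The medians were -1.43 (bin4-1) and -1.36 (bin4-2). The fall was at least 2-fold for 30 in bin4-1 and 28 in bin4-2, where 6.90% and 6.56% of all genes fell that far. No test set these genes against other gene groups, and most listed genes are unnamed on the array here. In what follows, list counts are to be read beside the shares of all genes given above. Paired values are log2 changes in bin4-1 and then in bin4-2.

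Of 23 other Calvin-Benson genes listed, 3 were measured, and all 3 fell in both mutants. AT4G39970 fell (-2.53 ± 0.10 and -2.28 ± 0.10, SE), close to PRK. AT5G64380 fell (-1.15 and -1.36), and AT1G56190 (-0.57 and -0.55). The last pair was named after the values had been seen. Measured genes of the list ranged in bin4-1 from the 1.48-fold fall of AT1G56190 to the 9.21-fold decrease of AT3G48420.

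Of 10 genes listed under folding, assembly or modification of Rubisco, 5 were measured and all 5 fell in both mutants. This list was added after the array annotation had been read. AT5G28500 fell (-2.25 ± 0.12 and -1.98 ± 0.12, SE), and AT5G51110 (-1.84 and -1.60). Cpn60beta2, a subunit of the chloroplast chaperonin that folds the Rubisco large subunit, fell (-1.07 and -1.08). AT3G47650 fell (-1.32 and -1.03), and LSMT-L, a lysine methyltransferase-like gene, likewise (-1.31 in each). Whether LSMT-L acts on Rubisco in these plants was not tested. The plastid gene rbcL, which encodes that large subunit, fell (-1.04 ± 0.13 and -0.86 ± 0.13, SE, limma adjusted p = 3.86e-05 and 0.000186), while the nuclear small subunit genes are unnamed on the array here.

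Thioredoxins switch PRK and SBPASE on in the light by reducing their disulphide bonds, and 3 of 4 listed genes of this control were measured. All 3 fell in both mutants. TRXF2, a thioredoxin f, fell (-1.66 ± 0.10 and -1.38 ± 0.10, SE). NTRC, which joins a thioredoxin to its own reductase, fell (-1.29 and -1.21), and AT2G04700 (-1.14 and -0.83). In photorespiration, which salvages the product of Rubisco's reaction with oxygen, 3 of 12 genes were measured and all fell. HPR, hydroxypyruvate reductase, fell (-1.90 ± 0.10 and -1.85 ± 0.10, SE), AT1G11860 (-1.69 and -1.52), and AT1G80380 (-0.50 and -0.48).

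In chlorophyll and tetrapyrrole synthesis, 9 of 30 genes other than PORB were measured, of which 7 fell and 1 rose in each mutant. CHLI2, a magnesium chelatase subunit, fell (-2.01 ± 0.12 and -1.58 ± 0.12, SE). CHLM, the methyltransferase of the next step, fell (-1.70 and -1.62). HEME2, a uroporphyrinogen decarboxylase, fell (-1.53 and -1.45), and the geranylgeranyl reductase gene AT1G74470, which provides the chlorophyll tail, fell (-1.36 and -1.38). Against this, HEMA2, a glutamyl-tRNA reductase at the start of the pathway, rose by 0.93 ± 0.12 and 0.71 ± 0.12 (SE, limma adjusted p = 3.51e-05 and 0.000321). HEMA2 read 5.19 and 5.27 in WT, 6.11 and 6.22 in bin4-1, and 6.07 and 5.81 in bin4-2, with no overlap between WT and mutants. The PORB fall lay close to the list's median of -1.21 in bin4-1 and was larger than its median of -1.08 in bin4-2. The sole measured gene of 10 for chlorophyll breakdown, NOL, a chlorophyll b reductase-like gene, fell (-1.15 and -0.83).

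Beside AT2G04039, 3 of 24 other nuclear genes of the NDH complex were measured and all fell. NdhL fell (-2.48 ± 0.11 and -2.16 ± 0.11, SE), NdhN (-2.34 and -2.12), and NdhS (-1.43 and -1.4). The decrease of AT2G04039 was larger than any of these, but this gene was included with the size of its change already known. Of 11 plastid-encoded genes (10 NDH subunits and rbcL), 10 fell in bin4-1 and 9 in bin4-2, where 25.0% and 26.6% of all genes did. The medians over the 11 were -0.78 and -0.74. Among them ndhJ fell (-1.4 and -1.18), ndhK (-1.34 and -1.07), and ndhH (-1.18 and -0.98). Arrays of 1 genotype differed for some of these, with ndhK at 5.34 and 4.72 in bin4-1 and 5.64 and 4.96 in bin4-2. Between the same arrays ndhA, ndhC, ndhD, ndhE, ndhG, ndhI and ndhJ shifted the same way, so the 11 are not separate observations. The difference in size between plastid and nuclear genes was not tested.

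Genes of the light reactions gave the same direction. All 3 measured of 19 antenna genes fell, led by LHCB4.2, a minor antenna protein of photosystem II (-2.67 ± 0.11 in bin4-1 and -2.18 ± 0.11 in bin4-2, SE), with LHCB4.3 at -1.45 and -1.21 and LHCB4.1 at -1.17 and -1.10. Of 39 photosystem and electron transport genes, 7 were measured and 7 fell in each mutant. PSAN, a photosystem I subunit, fell (-2.22 and -1.90), PSBY of photosystem II (-1.89 and -1.58), ATPC1, the gamma subunit of the chloroplast ATP synthase, (-1.78 and -1.53), and PSAE-1 (-1.56 and -1.36). None of the 16 listed regulators of these genes, such as GLK1 and HY5, is named by a probe set here.

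**Figure D2:**
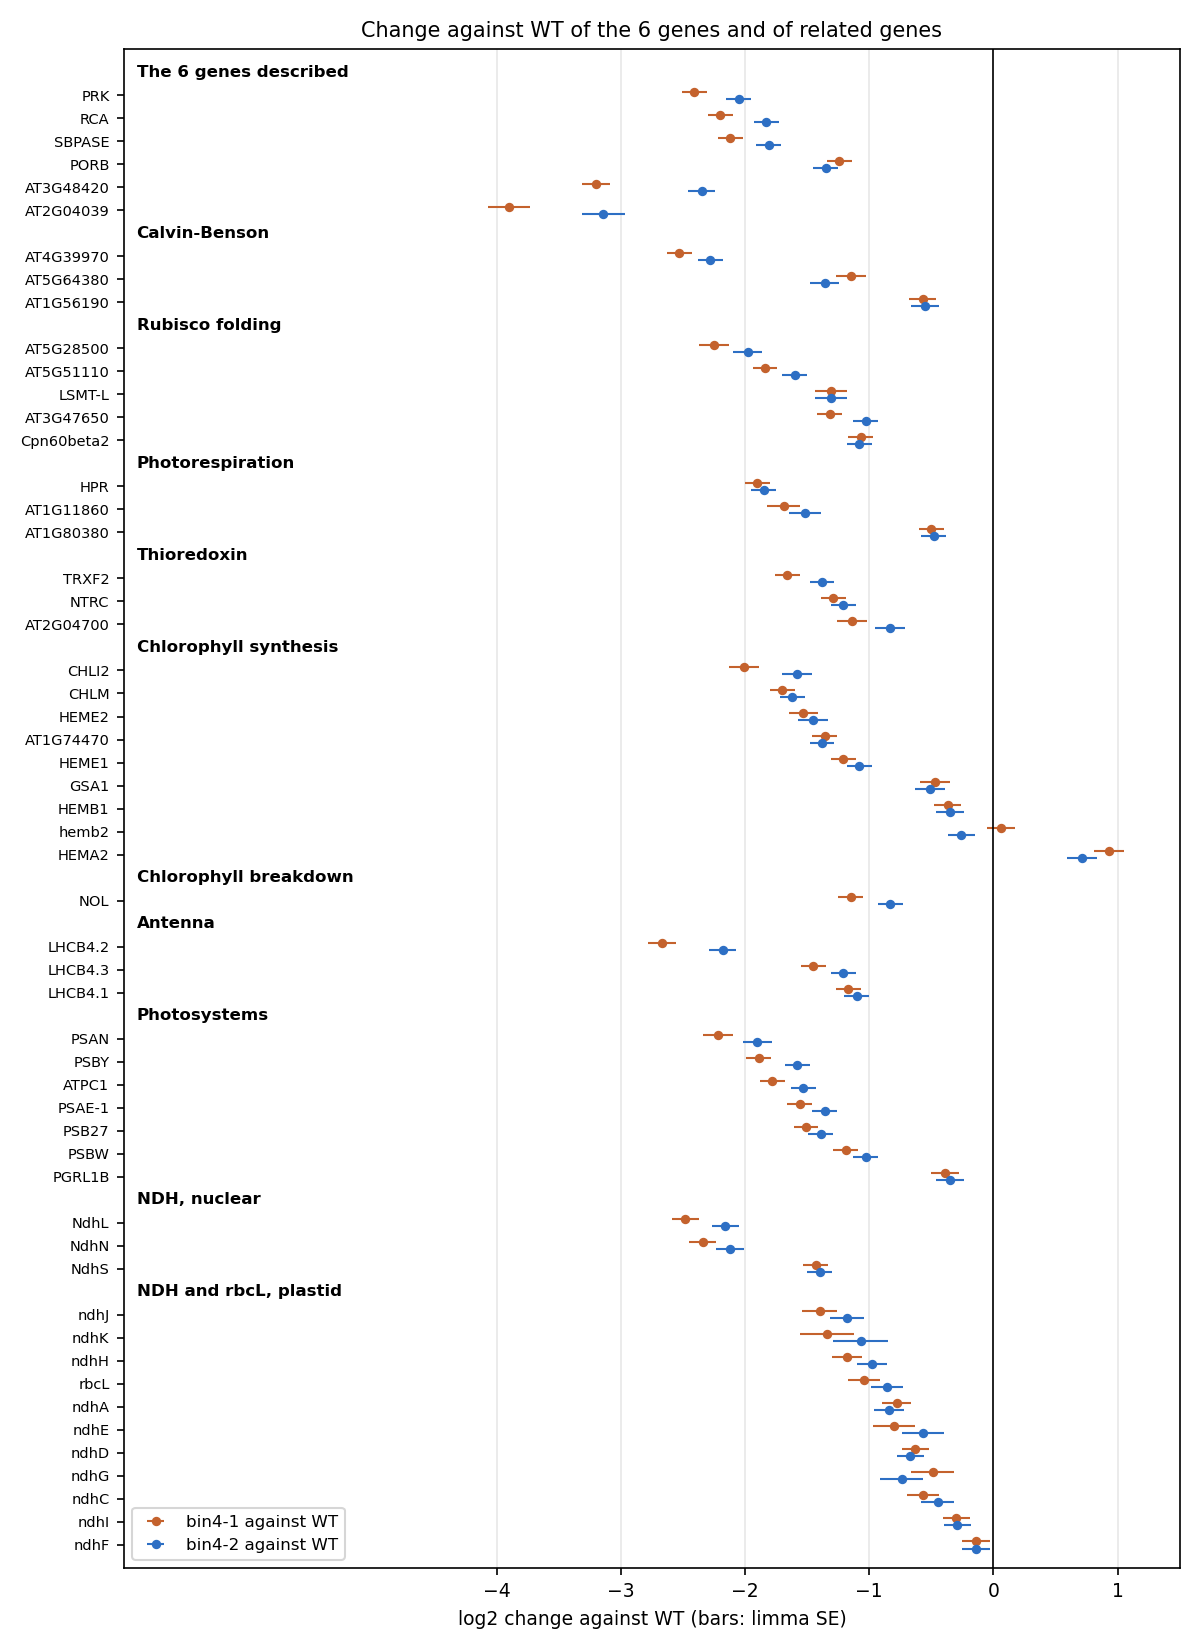
The log2 change against WT (x axis) is shown with limma's SE for the 6 genes at the top and for related genes below, grouped by pathway, in bin4-1 and bin4-2. Apart from HEMA2, which rose, and hemb2 at 0.06 in bin4-1, each point lies left of 0, and AT2G04039 and AT3G48420 lie farthest left in bin4-1.

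Markers of other seedling cells were measured beside these changes. In the guard cell lineage, SPCH, which starts the lineage, fell (-1.03 and -1.09), MUTE fell (-0.40 and -0.43), and FMA gave 0.02 and -0.05. MUTE was dim on all arrays, at 3.40 and 3.34 in WT and 2.84 to 3.10 in the mutants, and no background level was set. FMA on all arrays and SPCH on the mutant arrays also lay under the array medians. The summed intensity of the 3 guard cell genes was 59 to 69 in WT, 44 to 48 in bin4-1 and 43 to 45 in bin4-2. Of the root genes, PYK10, a beta-glucosidase abundant in roots, gave -0.12 and -0.24 without passing, and EXPA7, a root-hair expansin, gave -0.21 in bin4-1 without passing and fell by 0.57 in bin4-2. Their summed intensity was 2483 to 2601 in WT, 2311 to 2373 in bin4-1 and 2123 to 2179 in bin4-2. Nearly all of this sum was PYK10, which read 11.33 and 11.26 in WT, against 4.72 and 4.91 for EXPA7. Affymetrix intensities do not reach 0, so no marker was at 0. The part of a changed mix of organs or cells in the falls was not tested.

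The alleles differed less from each other than either did from WT. In 5 of the 6 genes both bin4-2 arrays lay above both bin4-1 arrays, a pattern found in 17.9% of all genes, and for PORB both lay below, as in 20.8%. PRK was higher in bin4-2 by 0.36 ± 0.10, RCA by 0.37 ± 0.10 and SBPASE by 0.30 ± 0.10 on the log2 scale (SE), and none of these passed (limma adjusted p = 0.281, 0.31 and 0.491). Their 95% intervals, not adjusted for the number of genes, were 0.15 to 0.58, 0.14 to 0.59 and 0.08 to 0.52. PORB differed by -0.11 ± 0.10 (adjusted p = 0.917), with an interval of -0.34 to 0.12.

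AT3G48420 was 1.81-fold higher in bin4-2 than in bin4-1 (log2 0.86 ± 0.11, SE, interval 0.61 to 1.11) and AT2G04039 1.70-fold higher (0.76 ± 0.17, interval 0.38 to 1.14). By size of increase these ranked 6 and 9 of all genes, and PRK, RCA and SBPASE ranked 156, 153 and 288. AT3G48420 was the 1 of 6 called higher, where 0.120% of all genes were. Since it was included with earlier results known, this is a description. The call was lost without any 1 of the 4 mutant arrays, with differences of 0.75 to 0.97. When the spread of a gene was allowed to follow its intensity, 5 of the 6 were called higher in bin4-2, all but PORB. In that fit 76 of all genes were called higher and 51 lower. The share of 0.120% belongs to the main fit, where 16 genes were called higher.

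The related nuclear genes lay on the same side. Of the 37, 31 had a positive difference and the median was 0.14, against -0.01 over all genes. Both bin4-2 arrays lay above both bin4-1 arrays for 22 of them (59.5%), where they did for 17.9% of all genes. They lay below for 3, where they did for 20.8% of all genes. None of the 37 passed the threshold for the difference between alleles in limma. An unadjusted limma p under 0.05 was found for 15 of the 37, and for 6.80% of all genes. The widest difference among them was that of LHCB4.2, 0.50 ± 0.11 (SE, limma adjusted p = 0.106), above those of PRK and RCA and below that of AT2G04039. The photosystem genes were positive for 7 of 7, the other nuclear NDH genes for 3 of 3, and the 9 chlorophyll genes for 5. With an intensity trend, 1 antenna, 2 photosystem and 1 Rubisco-folding gene were called higher in bin4-2. With that trend 76 of all genes were called higher and 51 lower.

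**Figure D3:**
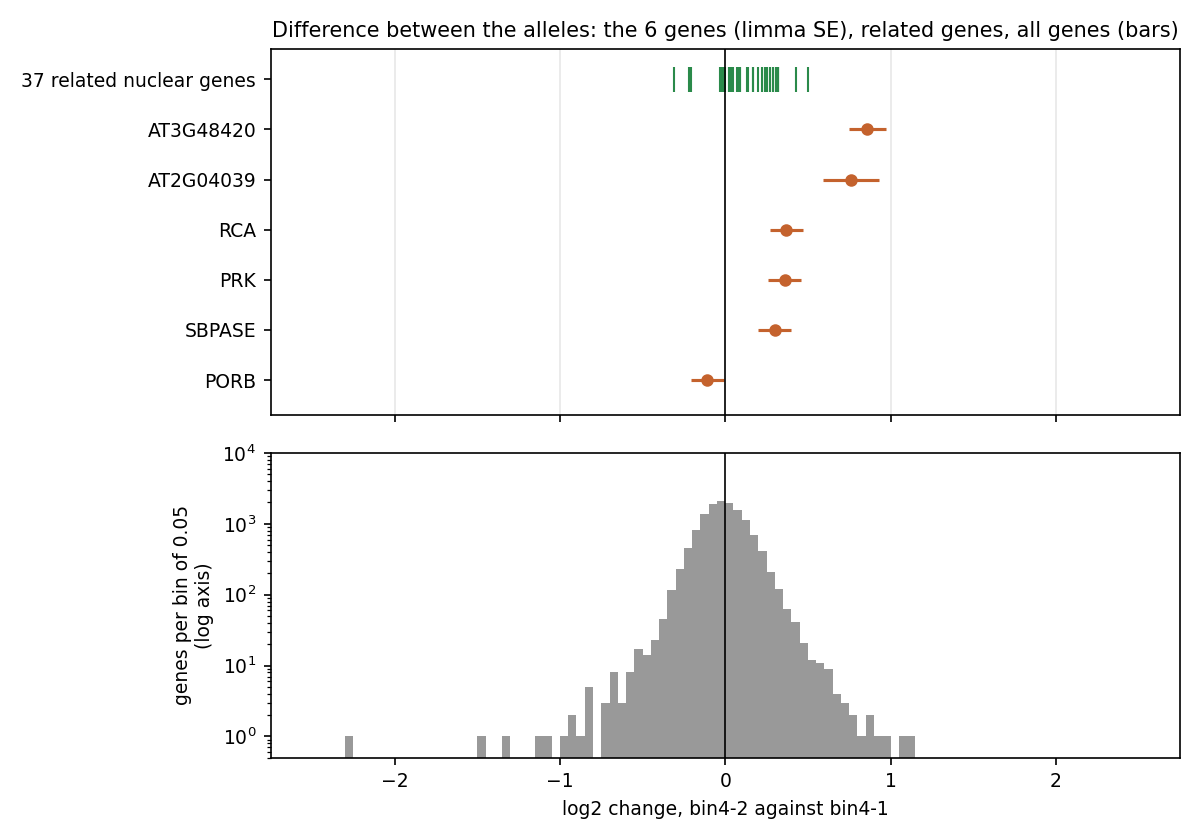
The log2 change of bin4-2 against bin4-1 (x axis) is plotted above for the 6 genes (points with limma's SE) and for 37 related nuclear genes (ticks), and below as a histogram of all 13355 genes on a log count axis. PRK, RCA and SBPASE lie between 0.30 and 0.37, AT2G04039 and AT3G48420 at 0.76 and 0.86, and PORB at -0.11.

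The position of the 6 genes on the chromosomes was compared with that of their measured neighbours, the nearest 3 on each side in RefSeq order, a comparison added after the data were seen. The genome build of the array's probes is not given in the sources used here, so no coordinates are printed. Of 36 neighbours, 8 fell and 9 rose in bin4-1 (22.2% and 25.0%, against 25.0% and 22.0% of all genes). In bin4-2, 8 fell and 8 rose (22.2% each, against 26.6% and 21.1%). The median over the 36 was -0.09 (bin4-1) and -0.14 (bin4-2). Of all 36, 1 fell at least 2-fold, and this was LrgB (AT1G32080), the next measured gene after PRK.

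LrgB is known in Arabidopsis as a chloroplast envelope carrier of glycolate and glycerate in photorespiration. It read 9.14 and 9.27 in WT, 5.90 and 6.03 in bin4-1, and 6.30 and 6.67 in bin4-2. It fell further than PRK (-3.24 ± 0.13 and -2.72 ± 0.13, SE, limma adjusted p = 3.74e-09 and 1.66e-08). The other 5 neighbours of PRK ranged from -0.42 to 1.05 in bin4-1. LrgB was singled out after its values had been seen, so its p-values are a description.

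No neighbour of the other 5 genes fell as far as the gene it flanks, and several rose. Next to PORB, AT4G27450 rose by 2.24 in bin4-1 and 2.63 in bin4-2 and AT4G27480 rose by 1.39 and 1.23. Next to RCA, AT2G39725 rose by 1.4 and 1.59, and next to AT2G04039, AT2G04050 rose by 1.14 and 1.51. The neighbours of SBPASE ranged from -0.14 to 1.14 in bin4-1, and those of AT3G48420 from -0.43 to 0.20. These genes were named after their values had been seen.

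**Figure D4:**
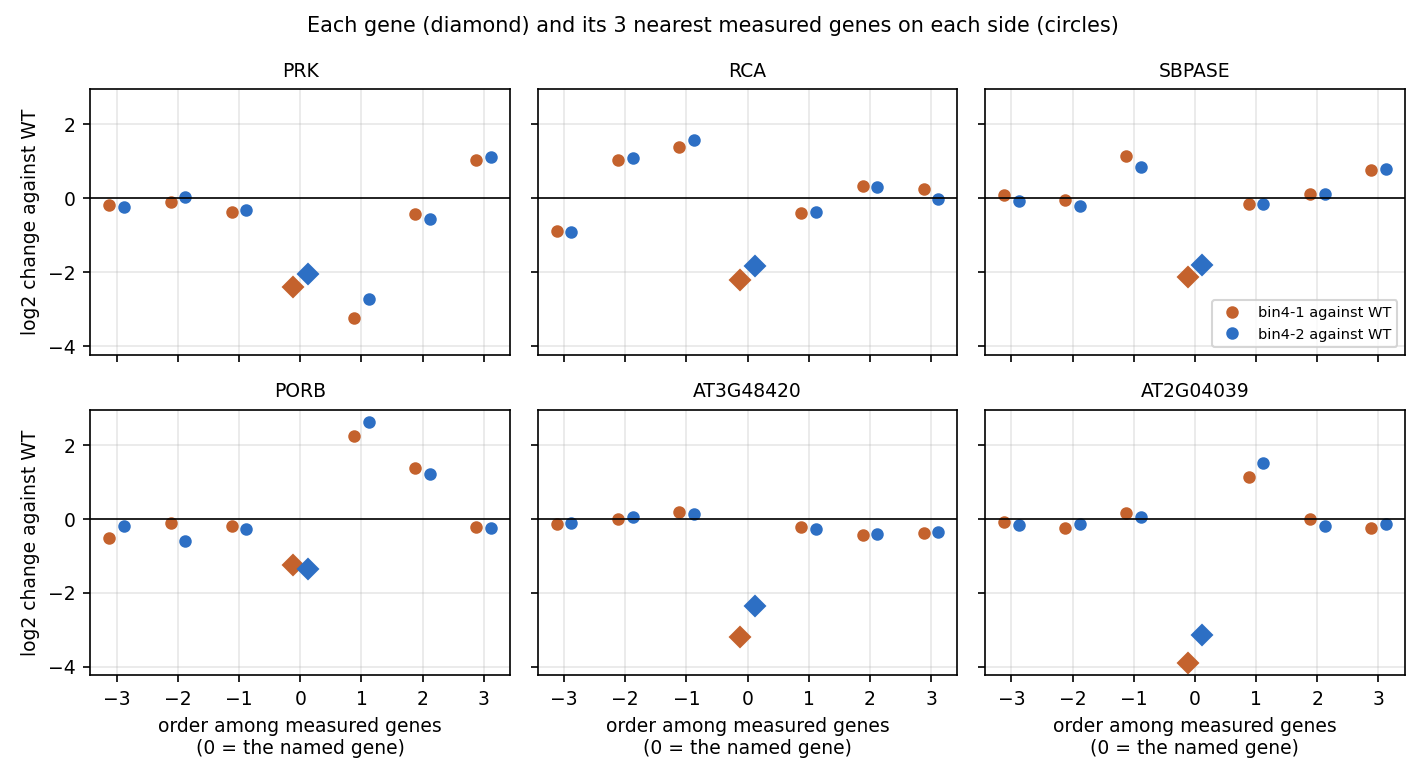
For each of the 6 genes (diamonds at 0 on the x axis) the log2 change against WT (y axis) is shown with that of the 3 nearest measured genes on each side (circles), in bin4-1 and bin4-2. Apart from LrgB beside PRK, at -3.24 and -2.72, no neighbour reaches as low as the gene it flanks.

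Genes other than the 6 themselves were ranked by likeness of profile, as the root mean square difference over the 6 arrays, each profile taken relative to its WT mean. Likeness was close for the moderate falls and sparse for the deep ones, where few genes fell as far. Within 0.25 of the profile lay 492 genes for PORB, 155 for SBPASE, 133 for RCA, 90 for PRK, 14 for AT3G48420 and 2 for AT2G04039. The nearest to PRK were AT4G24350 (0.038), AT2G01870 (0.058) and AT3G47070 (0.069), and the nearest to PORB were AT1G26100 (0.051), AT5G16250 (0.058) and AT3G19850 (0.060).

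RCA and SBPASE lay 0.052 from each other. Leaving out the 6 genes, they shared 2 of their 3 nearest, AT2G32500 (0.050 and 0.059) and AT2G03420 (0.061 and 0.059). The others were AT1G62780 for RCA (0.059) and AT4G27700 for SBPASE (0.040). AT3G48420 lay nearest to ATSPS4F, a sucrose phosphate synthase gene (0.122), CRR42, a gene needed for the chloroplast NDH complex (0.141), and AT5G16030 (0.155). ATSPS4F changed by -3.18 ± 0.12 in bin4-1 and -2.55 ± 0.12 in bin4-2 and CRR42 by -3.05 ± 0.13 and -2.47 ± 0.13 (SE). AT2G04039 lay nearest to MSRB6, a methionine sulfoxide reductase gene (0.164), AT3G21670 (0.227) and AT1G78020 (0.276). With 6 arrays in 3 groups, such a profile holds little more than the 2 changes against WT, and many genes share it.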

How the data were processed

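RNA of WT, bin4-1 and bin4-2 seedlings was measured on 6 1-colour Affymetrix arrays, 2 per genotype. The authors deposited RMA intensities, per the submitters' processing notes (version not given in the sources used here), on a linear scale with array medians of 26.1 to 27.0. The series' design text describes another mutant, caa39, studied by sequencing, and does not match these genotypes. Groups therefore rest on the sample labels alone, and no sequencing data were analysed here. Here log2 was taken. The arrays hold 22810 probe sets, 64 of them controls. The platform annotation names 1 gene for 13513, several for 503 and none for 8730, and 13436 were matched to RefSeq (TAIR10.1) for names and gene order. For 147 genes with several probe sets the one with the highest mean was kept, leaving 13355.

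limma 3.58.1 in R 4.3.3 (lmFit, eBayes, 3 group means, all arrays) gave two-sided tests with Benjamini-Hochberg adjustment over all genes, with 3 residual and 8.25 prior degrees of freedom. The number of arrays limits the precision. The fit was tested on simulated data. The members and lists were chosen with earlier results of these data known. Named were the 6 genes and BIN4, every measured gene of lists with 6 or fewer, otherwise the 4 largest called changes and up to 3 against the majority (members counted), and the 3 nearest profiles per gene. The plastid and Rubisco-folding lists and the neighbours were added later. Alternatives were other fits, filters, scalings, a log offset and leaving out arrays. Python 3.11.15, pandas 2.3.3 and matplotlib 3.10.9 made the tables and plots.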

Additional observations from a re-analysis of the deposited data

Results flagged for a closer look

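AT3G48420, the sugar-phosphate phosphatase gene, is listed because the fit over all genes called its change different between the alleles. Its log2 change against WT was -3.20 in bin4-1 and -2.35 in bin4-2, a difference of 0.86 ± 0.11 (SE), with both bin4-2 arrays above both bin4-1 arrays. The gene was included with earlier results of these data known, so the call is a description and no independent test. It was lost without any 1 of the 4 mutant arrays, with differences of 0.75 to 0.97 (limma adjusted p up to 0.148). Groups of 2 arrays are too small for a check of single outlying arrays.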

How the results depend on the processing

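The falls of the 6 genes against WT kept their direction and their call in each mutant under all 14 alternatives. The lowest and highest log2 changes were -2.42 and -2.36 for PRK, -2.24 and -2.09 for RCA, -2.13 and -2.07 for SBPASE, -1.29 and -1.18 for PORB, -3.28 and -2.90 for AT3G48420 and -4.07 and -3.17 for AT2G04039 in bin4-1. For each mutant against WT, the counts called lower stayed at 6 of 6. The difference between alleles depended on the settings. With an intensity trend PRK (0.36), RCA (0.37), SBPASE (0.30) and AT2G04039 (0.76) also passed, which made 5 of 6 called higher, 1 antenna, 2 photosystem and 1 Rubisco-folding gene, and 76 genes higher and 51 lower in all. With 16 added to the intensity PRK passed (0.35), giving 2 of 6. With a mean log2 of at least 5, 1 antenna gene passed. With 1 array left out, AT3G48420 ranged from 0.75 to 0.97 (adjusted p from 0.00679 to 0.148), the count of the 6 called higher from 0 to 1, and all genes called from 0 to 23 higher and 6 to 28 lower. The cause was not tested.

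Counts over all genes changed with the number of genes tested. All probe sets gave 6209 lower and 5637 higher in bin4-1, 6639 and 5392 in bin4-2, and 30 and 25 between alleles. A mean log2 of at least 5 left 1778 lower in bin4-1, 1836 lower in bin4-2 and 33 higher between alleles. A fit of both mutants alone called 28 lower between alleles. Over all probe sets, samples with the same replicate number did not deviate together (correlations of -0.006, 0.075 and -0.053 between groups), so the main fit used no pairing. This cannot exclude a shared shift in a subset of genes. Of the plastid genes, ndhA, ndhC, ndhE, ndhG, ndhI, ndhJ and ndhK were higher on the array with the lower replicate number in each genotype. So was ndhD in both mutants, with 9.58 on each WT array, while ndhF, ndhH and rbcL did not keep to this. Most of the plastid genes listed thus shared a shift by replicate number. With the replicate block, 9 genes were called higher between alleles, against 16 without it, and no call of the 6 genes changed. Quantile normalization moved the median change of all genes in bin4-1 from -0.075 to -0.035.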
